A study of Mus musculus with 2 samples.

Results

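The cell cycle module is a set of 41 genes, of 32285 features in the count matrices, whose products copy the genome or divide the cell. The genes were taken from a list of names, by their known roles and by no threshold on these counts, although the list was drawn up with earlier results of these data known. They were read in tumours taken from the livers of mice, in 1 single-cell RNA library from Crtc2+/+ animals and 1 from Crtc2-/- animals, the latter carrying a loss of Crtc2, a coactivator of the transcription factor CREB. All animals of both genotypes received 25 mg/kg of the liver carcinogen diethylnitrosamine by intraperitoneal injection at 2 weeks of age and a NASH diet, which fattens and inflames the liver, from 8 to 26 weeks, after which the tumours were taken. The sources used here give neither the number of animals or tumours pooled in a library nor the strain or the deleted part of Crtc2. With 1 library per genotype there was no replicate check, no test between genotypes was possible, and each interval below covers counting error only, at 95%.

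A cell that enters division switches these genes on in order. In late G1 the cyclins Ccne1 and Ccne2 and the transcription factor E2f1 prepare the cell; Cdc6 and Cdt1 load the Mcm2, Mcm3, Mcm4, Mcm5, Mcm6 and Mcm7 helicase subunits onto origins; Gins2 helps to activate the helicase. In S phase Pcna clamps the polymerases to DNA, Rrm1, Rrm2 and Tyms make deoxynucleotides, and Uhrf1 helps to copy DNA methylation. These 17 genes were read as the S members. The 23 G2/M members act later: Cdk1 with the cyclins Ccna2, Ccnb1 and Ccnb2 drives entry into mitosis, Plk1, Aurka and Aurkb are mitotic kinases, and Birc5 and Cdca8 sit with Aurkb in the chromosomal passenger complex. Bub1 and Bub1b act in the spindle checkpoint, Cenpe and Cenpf at the kinetochore, Kif11, Kif20b, Tpx2, Nusap1 and Hmmr on spindle microtubules, and Cdc20 and Ube2c in the destruction of mitotic proteins. Top2a untangles and Smc4, a condensin subunit, compacts the chromosomes, while Mki67 coats them. Stmn1, which destabilises microtubules and is also made by cells that do not divide, was placed in neither group. In a liver tumour, dividing cells can be the tumour cells themselves or immune and vascular cells that expand in place.

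The promoters of the members show which of the classical cell cycle motifs they carry. In RefSeq windows of GRCm38.p6, running from 250 bases before to 50 bases after the annotated start, 33 of the 41 members had an entry; Aurkb, Gins2, Smc4, Ccne2, Stmn1, Tpx2, Mcm4 and Ccna2 are named only. On both strands, the searched letters were TTTGAA or TTTAAA for the CHR element of late cell cycle genes, CCAAT for the CCAAT box, and TTTGGCGC, TTTCGCGC, TTTCCCGC or GGCGGGAA for the E2F site of G1/S genes. A CHR match was found in 17 of 19 G2/M members and 5 of 14 S members, against 30.6% of 27025 genes with a window. An E2F match was found in 8 of the 14 S members and, among the 19 G2/M members, in Cdk1 alone, against 4% of all genes. CHR and CCAAT letters were found together in 15 of the 19 G2/M members, against 13.4% of all genes. A match describes letters in a window, not binding.

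The 6 stretches printed here are the 150 bases before the start of members that show these motif arrangements, in gene orientation, 5′ to 3′, with motif letters in capitals on either strand. Cdk1 (chr10:69352913-69353062, minus strand), Ccnb1 (chr13:100786487-100786636, minus strand), Ube2c (chr2:164769779-164769928, plus strand) and Top2a (chr11:99024190-99024339, minus strand) show the CHR and CCAAT arrangement of G2/M members. Mcm6 (chr1:128359706-128359855, minus strand) and Mcm5 (chr8:75109359-75109508, plus strand) show the E2F letters of S members.
Cdk1: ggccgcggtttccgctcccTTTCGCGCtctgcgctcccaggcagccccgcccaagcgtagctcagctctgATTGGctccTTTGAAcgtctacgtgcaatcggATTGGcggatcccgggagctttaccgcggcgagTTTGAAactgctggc
Ccnb1: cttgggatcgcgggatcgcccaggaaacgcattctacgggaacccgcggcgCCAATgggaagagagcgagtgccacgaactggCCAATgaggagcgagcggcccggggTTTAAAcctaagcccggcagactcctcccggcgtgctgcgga
Ube2c: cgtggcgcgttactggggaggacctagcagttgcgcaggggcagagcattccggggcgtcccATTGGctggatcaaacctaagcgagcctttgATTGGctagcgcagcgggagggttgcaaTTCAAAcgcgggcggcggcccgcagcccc
Top2a: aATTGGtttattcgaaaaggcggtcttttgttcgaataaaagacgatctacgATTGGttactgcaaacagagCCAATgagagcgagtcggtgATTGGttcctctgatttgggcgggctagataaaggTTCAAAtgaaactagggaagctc
Mcm6: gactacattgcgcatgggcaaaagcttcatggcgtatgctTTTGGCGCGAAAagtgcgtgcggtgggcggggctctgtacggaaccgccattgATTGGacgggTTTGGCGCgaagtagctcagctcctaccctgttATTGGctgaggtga
Mcm5: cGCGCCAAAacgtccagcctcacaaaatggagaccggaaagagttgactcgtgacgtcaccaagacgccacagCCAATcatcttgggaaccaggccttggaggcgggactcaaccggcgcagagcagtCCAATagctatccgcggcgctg
In Cdk1, Ccnb1, Ube2c and Top2a the last CHR match lies downstream of all CCAAT letters, nearer to the start. Cdk1 also holds E2F letters. In Mcm6 the first capitalised run holds overlapping E2F letters of both strands, and a further E2F match lies nearer to the start.

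The 2 libraries held 9707 and 9242 cell barcodes and 81487425 and 78040008 unique molecular identifiers (UMIs, one per captured transcript), Crtc2+/+ first here and throughout. Filters left 9349 and 8901 cells with a median of 7115 and 6560 UMIs; 29 barcodes occurred in both libraries. Crtc2 itself was counted at 7.96 CPM (UMIs of the gene per 1000000 UMIs in all) in the Crtc2+/+ library and 5.43 CPM in the Crtc2-/- library. A 3′ tag can lie outside a deleted part, so this level checks nothing and every direction below rests on the library labels. Cells were grouped by 8 gates on marker UMIs: T (Cd3 genes), NK, macrophage (C1q genes), Sox5 myeloid, cDC1 (Clec9a), neutrophil, B and endothelial. Independent markers were found in most T (Trac in 81.4% and 82.4% of cells), NK (Klre1, 90.4% and 91.4%), macrophage (Adgre1, 92.9% and 90.9%), neutrophil (Csf3r, 94.7% and 98.1%) and endothelial cells (Cdh5, 95.3% and 93.2%), and in 58.5% and 61.9% of B gate cells (Ms4a1). The other gates went against their names in part: Flt3, a dendritic cell gene, was found in 15.6% of the Crtc2+/+ cDC1 gate against 54.3% in the other library, and Fcrl5 in 42.8% and 92.6% of the Sox5 gate. The gates overlapped, with 87.2% and 47.2% of cDC1 gate cells, 74.6% and 75.6% of Sox5 gate cells and 23.1% and 67.2% of macrophage gate cells also passing another gate. Values are therefore also given for single-gate cells, those that pass exactly 1 gate.

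Cells with at least 2 UMIs of Mki67 and Top2a together were called cycling. They made up 591 of 9349 Crtc2+/+ cells, or 6.32% (5.84 to 6.83), and 561 of 8901 Crtc2-/- cells, or 6.30% (5.81 to 6.83). The cycling shares of the whole libraries thus lay within each other's intervals. Shares by gate are given below, and the difference between gates was not tested. Cycling cells were deeper, with a median of 15676 and 14287 UMIs against 6811 and 6230 in other cells. Whether depth drives the call or cycling cells hold more RNA was not tested. Each share is therefore also given with every cell thinned to 2000 UMIs, which also removes Mki67 and Top2a UMIs from cycling cells. As a background from cells that should not divide, the plasmacytoid dendritic cells held 0 cycling cells of 44, which allows a share of up to 6.82% at 3 counts of the total, and 0 of 179, which allows up to 1.68%; the exact limits are 8.04% and 2.04%. These cells had medians of 8357.5 and 8744 UMIs. Single-gate B cells, with 3 of 520 (0.577%) and 16 of 1130 (1.42%), were also low, at medians of 3418.5 and 3939.5 UMIs. The T gate median was 4617.5 and 4705 UMIs. The plasmacytoid dendritic cells passed none of the 8 gates, so they give no background for the overlapping gates as written. Cells that passed more than 1 gate had a higher cycling share than the other cells in both libraries. Mature neutrophils should not divide either, but the neutrophil gate held 9 cycling cells of 310 in the Crtc2-/- library, as given below.

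In the T gate the cycling share was higher in the Crtc2-/- library, both as written and in single-gate cells. It was 85 of 1926 cells, 4.41% (3.54 to 5.43), in the Crtc2+/+ library and 188 of 2608, 7.21% (6.25 to 8.27), in the Crtc2-/- library, a ratio of 1.63 (1.26 to 2.14). In single-gate T cells the shares were 4.03% and 6.58%, a log2 ratio of 0.71 (0.30 to 1.12). After thinning to 2000 UMIs, which kept 1856 and 2565 T cells, the shares were 2.21% and 2.92%, and the interval of the log2 ratio of 0.40 (-0.16 to 0.99) included 0. In the macrophage gate the share was 8.58% (7.82 to 9.40) and 11.4% (9.94 to 13.1). That difference was not seen in single-gate macrophages, at 7.45% and 6.42%, nor after thinning, at 4.15% and 4.09%. The Crtc2-/- macrophage gate cells were also deeper, with medians of 8922 and 11192 UMIs.

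**Figure D1:**
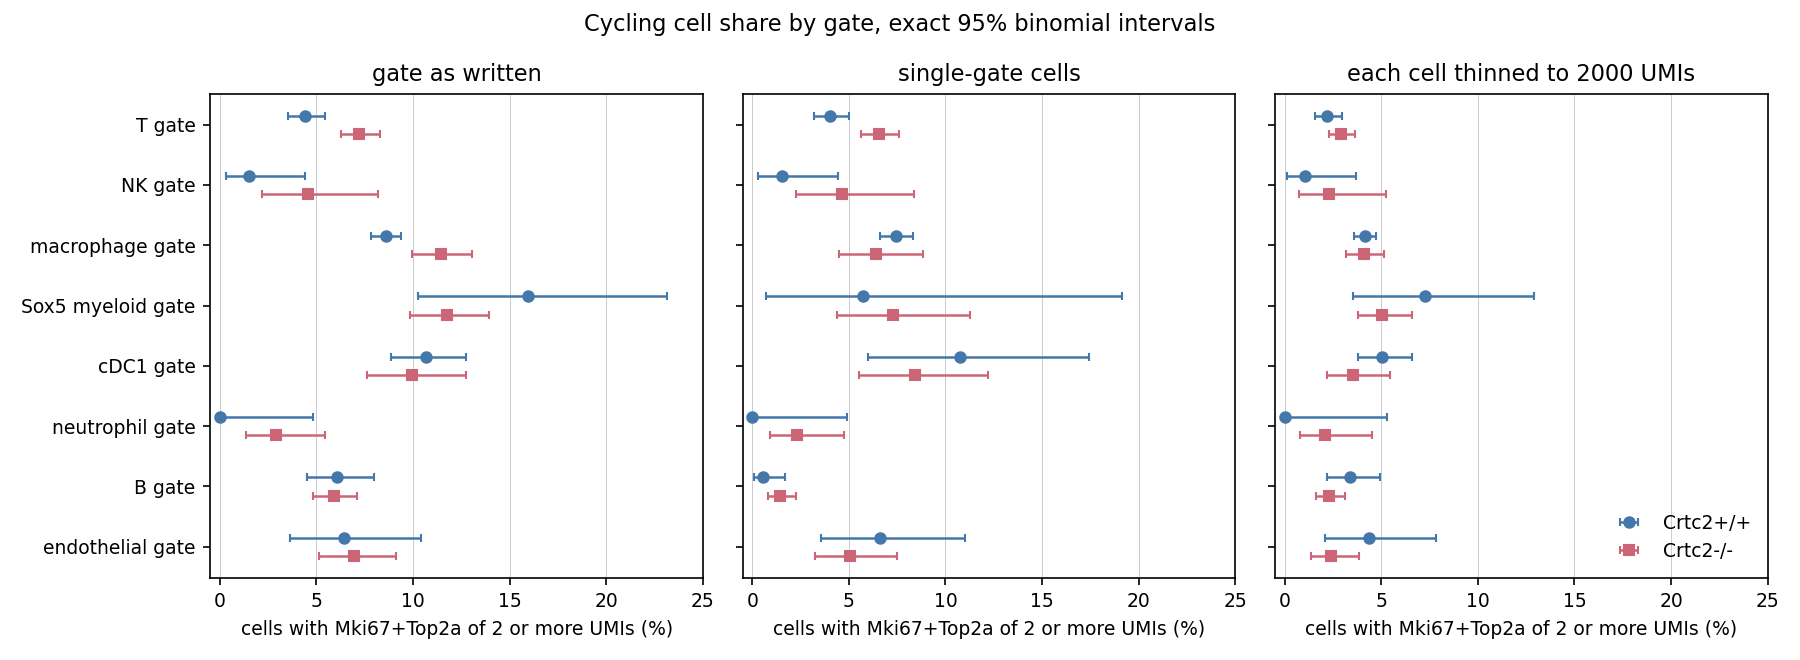
Share of cycling cells (percent of cells, x axis) in the 8 gates (rows) for the Crtc2+/+ and Crtc2-/- libraries, for the gates as written, for single-gate cells and for cells thinned to 2000 UMIs. Bars are exact binomial intervals for counting error; the T gate points are 4.41% and 7.21% as written and 2.21% and 2.92% after thinning.

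The remaining gates gave intervals too wide or values too unsteady to order the libraries. In the NK gate 3 of 197 cells (1.52%) and 10 of 220 (4.55%) were cycling, with an interval of the log2 ratio from -0.38 to 4.08. In the endothelial gate the shares were 15 of 233 (6.44%) and 47 of 677 (6.94%), and after thinning 4.35% and 2.39%. The cDC1 gate held 10.7% and 9.96%, the Sox5 gate 15.9% and 11.8%, and the B gate 6.08% and 5.90% cycling cells. In the B gate 45 of the 48 and 87 of the 103 cycling cells also passed another gate. The neutrophil gate held 0 cycling cells of 75 in the Crtc2+/+ library, which allows a share of up to 4% at 3 counts of the total (exact limit 4.80%), and 9 of 310 (2.90%) in the Crtc2-/- library.

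Within the T gate, the cycling share was 5.05% and 7.75% in Cd8 T cells, with a log2 ratio of 0.62 (0.12 to 1.13), and 6.64% and 9.29% in Cd4 T cells without Foxp3. T cells with Foxp3, the factor that defines regulatory T cells, held 2 cycling cells of 94 (2.13%) and 14 of 121 (11.6%), a log2 ratio of 2.44 with a wide interval of 0.32 to 5.62. Those Foxp3 cells differed in depth, with medians of 3190 and 5242 UMIs, and after thinning the shares were 2 of 85 (2.35%) and 7 of 119 (5.88%). T cells with a UMI of Pdcd1, the gene of the inhibitory receptor PD-1, were cycling in 24 of 364 cells (6.59%) and 103 of 933 (11.0%), and those without in 3.91% and 5.07%. Thinned shares were 4.26% and 4.99% with Pdcd1, and 1.73% and 1.76% without. The other T cells, with neither Cd8 nor Cd4 nor Foxp3, were cycling in 2.99% and 4.21%, and after thinning in 2.01% and 0.922%. In each of these T sub-gates the Crtc2-/- share was the higher before thinning, and the other T cells turned after it. Weighted to the mean make-up of Cd8, Cd4, Foxp3 and other T cells, the T gate shares were 4.50% and 7.08%. Pdcd1 was not part of this weighting, although T cells with Pdcd1 numbered 364 of 1926 and 933 of 2608. The part of that shift in the T gate shares was not tested.

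**Figure D2:**
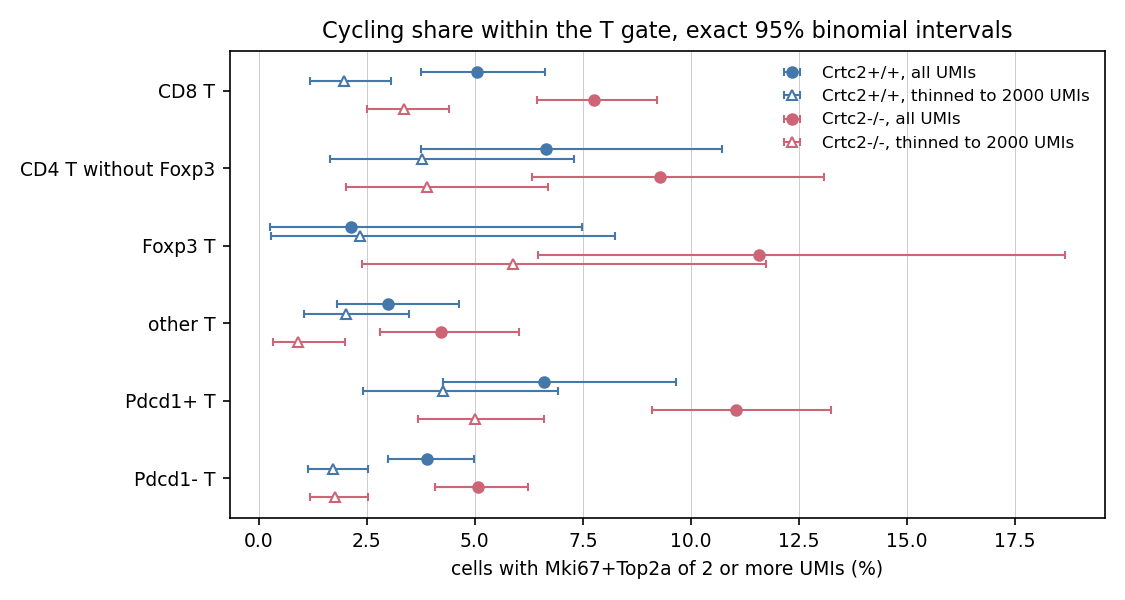
Share of cycling cells (percent, x axis) in sub-gates of the T gate (rows) for both libraries, filled points at full depth and open points after thinning to 2000 UMIs, with exact binomial intervals. Cd8 T cells stand at 5.05% and 7.75% at full depth and at 1.98% and 3.36% after thinning.

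The members' summed levels over the whole T gate were also higher in the Crtc2-/- library. A level here is the UMIs of a gene over all UMIs of the gate, so it mixes the number of cycling cells with the RNA in each. Its interval treats each UMI as an independent count and does not cover the sampling of cells. Of the G2/M UMIs of the T gate, 72.9% and 74.9% came from the 85 and 188 cycling cells. The 17 S members together stood at 446 CPM and 511 CPM, a log2 ratio of 0.20 (0.14 to 0.25), and the 23 G2/M members at 727 and 942 CPM, a log2 ratio of 0.37 (0.33 to 0.41). Inside cycling T cells, without Mki67 and Top2a, neither sum was higher in the Crtc2-/- library: the S members stood at 1969 and 1588 CPM and the G2/M members at 4330 and 3673 CPM.

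The T sub-gates did not share 1 pattern of S and G2/M members. In Cd8 T cells the log2 ratio was 0.19 (0.12 to 0.25) for the S and 0.43 (0.38 to 0.48) for the G2/M members, at 504 and 573 CPM and at 756 and 1016 CPM. In Cd4 T cells without Foxp3 the S members, at 396 and 568 CPM, had a log2 ratio of 0.52 (0.36 to 0.69). The G2/M members, at 931 and 1192 CPM, had 0.36 (0.25 to 0.47), so the intervals overlapped. In Foxp3 T cells the S members stood at 344 and 516 CPM, a log2 ratio of 0.58 (0.29 to 0.88). Their G2/M members stood at 1475 and 1814 CPM, with 0.30 (0.15 to 0.44), and the intervals overlapped. With called doublets kept the Foxp3 order turned, to 0.23 (-0.02 to 0.48) for S and 0.44 (0.31 to 0.58) for G2/M members. T cells with Pdcd1 stood at 596 and 729 CPM of S members (0.29) and 1268 and 1410 CPM of G2/M members (0.15). T cells without Pdcd1 were lower in S members, at 411 and 381 CPM (-0.11), and higher in G2/M members, at 602 and 664 CPM (0.14). The other T cells were lower in both, at 375 and 340 CPM (-0.14) and at 532 and 479 CPM (-0.15).

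Log2 ratios of single members were computed after adding 10 CPM to each side, and a member was measured with at least 20 UMIs over both libraries. In the T gate all 41 members were measured, and 38 stood above and 3 below a log2 ratio of 0, with a median of 0.17 against 0.03 over 13860 genes. All 23 G2/M members and 14 of the 17 S members were above 0, with medians of 0.30 and 0.11. Only Birc5 was past 1.5-fold higher and no member was past 1.5-fold lower, where 3% of all measured genes were past it upward and 1.36% downward. The shift of the T gate was thus spread over the members and small for each. In single-gate T cells 39 members were above 0 with a median of 0.25, and 3 were past 1.5-fold higher against 2.03% of genes.

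Among the G2/M members of the T gate, Birc5 (ENSMUSG00000017716, GRCm38 chr11:117849251-117855743), the survivin subunit of the passenger complex, stood at 36.4 CPM (377 UMIs) and 59.7 CPM (936 UMIs), a log2 ratio of 0.59. Its ratio before the added CPM had an interval of 1.45 to 1.85, and it was found in 3.48% and 5.25% of cells. Cdca8, its partner in that complex, stood at 23.8 and 39.7 CPM, a log2 ratio of 0.56. These were the highest ratios of the module in T cells, while Aurkb, the kinase of the same complex, stood at 13.8 and 15.6 CPM (0.10). Ube2c stood at 49.5 and 74.7 CPM (0.51) and Mki67 at 54.4 and 71.7 CPM (0.34). Top2a, at 82.8 and 87.4 CPM, was nearly level, with a ratio interval of 0.969 to 1.15.

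Among the S members of the T gate, Mcm6 (ENSMUSG00000026355, chr1:128331590-128359664), whose E2F letters are printed above, stood at 61.0 and 92.5 CPM, a log2 ratio of 0.53 with a ratio interval of 1.38 to 1.67. The 3 members below 0 were Ccne1 at 11.0 and 9.18 CPM, Cdt1 at 31.0 and 28.3 CPM and Ccne2 at 5.50 and 5.23 CPM. Their log2 ratios were -0.13, -0.10 and -0.03. Cdc6, which loads origins with Cdt1, stood above 0, at 3.18 and 5.16 CPM (0.20), as did E2f1, at 6.75 and 8.67 CPM (0.16).

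**Figure D3:**
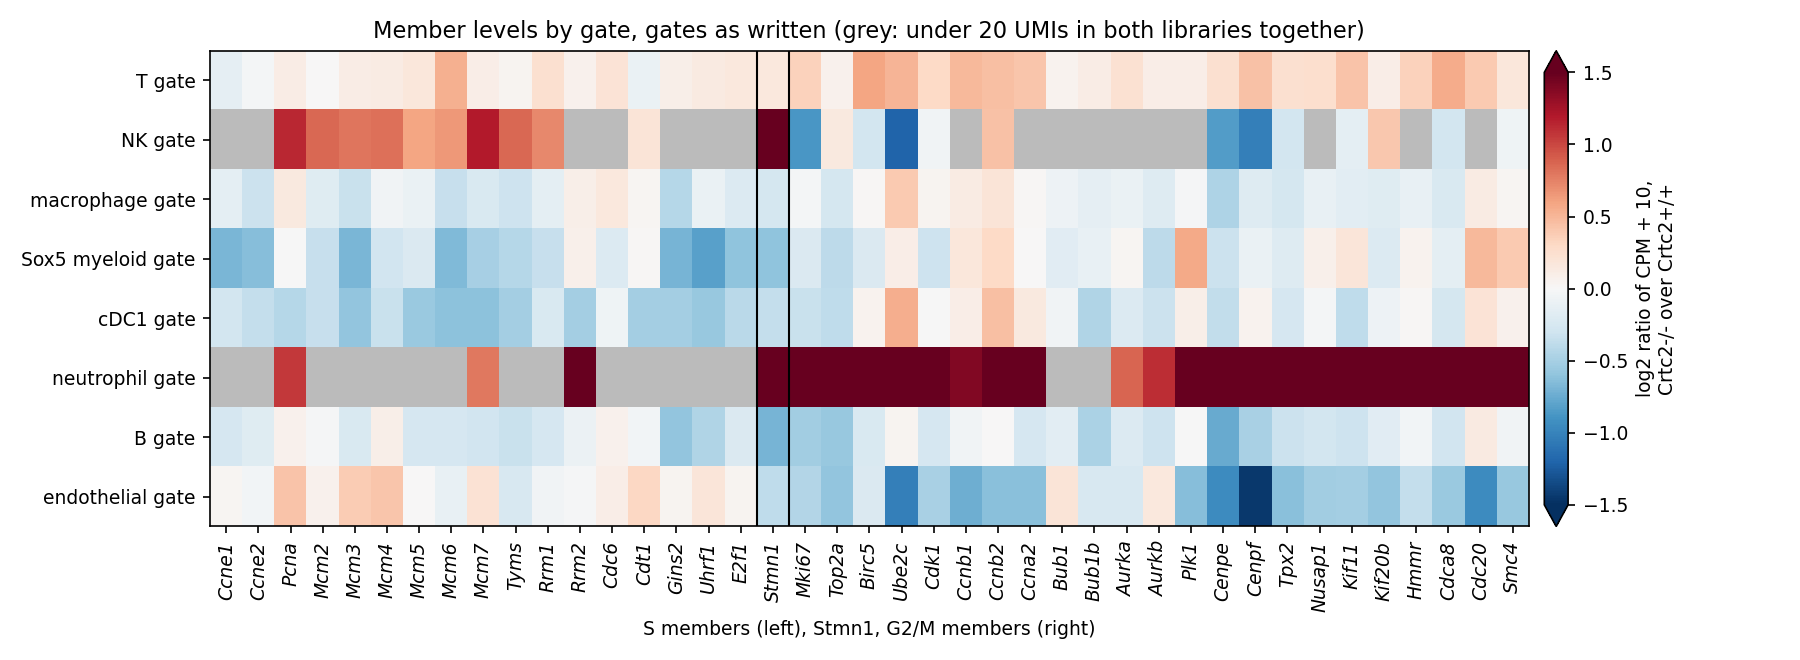
Log2 ratio of Crtc2-/- over Crtc2+/+ after adding 10 CPM (colour, cut at -1.5 and 1.5) for each of the 41 members (columns; S members left, Stmn1 between, G2/M members right) in each gate (rows), grey where fewer than 20 UMIs were counted. The T row lies above 0 for 38 of 41 members, and the endothelial row is below 0 for most G2/M members.

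Of other cell cycle genes, from lists outside the module, the CDK inhibitors had the highest median log2 ratio in the T gate. Of 28 other S phase genes 20 stood above 0 and 8 below, with a median of 0.09, led by Dut, a dUTPase, at 96.5 and 138 CPM (0.47), Pclaf at 62.8 and 83.1 CPM (0.35) and Nasp, a histone chaperone, at 76.3 and 93.8 CPM (0.27). Of 44 other G2/M genes 37 stood above 0, with a median of 0.11. Cenpa, the centromeric histone, was the only one of these 44 past 1.5-fold, at 40.5 and 90.8 CPM (0.997), followed by Cdc25b at 23.6 and 39.8 CPM (0.57) and Cks2 at 51.8 and 78.0 CPM (0.51). Among the 20 G1 regulators the D-type cyclins split: Ccnd2 stood at 484 and 310 CPM (-0.62), while Ccnd1 stood at 16.9 and 31.9 CPM (0.64). Of 7 CDK inhibitors, which brake the cycle, 6 stood above 0, with a median of 0.32, Cdkn2a at 4.44 and 13.5 CPM (0.70), Cdkn1a at 15.1 and 25.0 CPM (0.48) and Cdkn2c at 25.7 and 36.5 CPM (0.38). Marker sums of other cells also differed in the T gate, with Kupffer genes at 1.16 and 139 CPM and plasma cell genes at 40.2 and 207 CPM, and macrophage genes at 699 and 788 CPM. Their part in the member ratios was not tested.

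Over the whole macrophage gate the members were slightly lower in the Crtc2-/- library although the share of cycling cells was higher. The S members stood at 458 and 404 CPM and the G2/M members at 689 and 648 CPM. In the macrophages outside the Kupffer sub-gate (4899 and 1122 cells) both were level, at 462 and 456 CPM of S members, with a ratio interval of 0.959 to 1.02, and at 689 and 693 CPM of G2/M members, with 0.982 to 1.03. In single-gate cells outside the Kupffer sub-gate both were lower, with log2 ratios of -0.65 (-0.74 to -0.57) for S and -0.39 (-0.46 to -0.33) for G2/M members. In the Kupffer sub-gate (41 and 540 cells) the S members stood at 187 and 328 CPM (0.81) and the G2/M members at 688 and 582 CPM (-0.24). Single-gate Kupffer cells had log2 ratios of 1.03 (0.66 to 1.41) for S and 0.13 (-0.11 to 0.37) for G2/M members. The lower G2/M level was thus not seen there. Of 41 measured members 12 were above and 29 below 0, with a median of -0.11 against 0.02 over all genes. No member was past 1.5-fold in either direction, where 6.51% of genes were past it upward and 3.85% downward. Single-gate macrophages had a median of -0.26, with 38 members below 0 and 4 past 1.5-fold lower against 3.89% of genes.

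The G2/M members of the macrophage gate did not move together. Ube2c, at 34.6 and 48.8 CPM, had the highest log2 ratio, 0.40, with Ccnb2 at 16.8 and 20.6 CPM (0.19). Cenpe, a kinetochore motor, had the lowest, -0.47, at 36.6 and 23.8 CPM. Mki67 was level at 76.1 and 74.1 CPM (-0.03), and Top2a stood at 84.9 and 69.1 CPM (-0.26). Of the S members, Gins2 stood at 17.9 and 10.8 CPM (-0.42), Mcm6 at 42.6 and 31.5 CPM (-0.34) and Cdc6 at 4.11 and 5.73 CPM (0.16). In single-gate macrophages Ube2c was again higher, with a log2 ratio of 0.42, and Cenpe and Mcm6 again lower, at -0.71 and -0.69.

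The macrophage gate held different cells in the 2 libraries. Kupffer cell genes summed to 62.2 and 1835 CPM there, Sox5 myeloid genes to 379 and 2520 CPM and endothelial genes to 44.1 and 430 CPM. Without the Kupffer sub-gate the summed members were level in the gate as written but lower in single-gate cells, as given above. The part of the Kupffer, Sox5 myeloid and endothelial genes was not tested. Of 28 other S phase genes 3 stood above and 25 below 0, with Tk1, a thymidine kinase, at 30.0 and 44.4 CPM (0.44) and Rfc2 at 78.6 and 52.2 CPM (-0.51). Of 44 other G2/M genes 13 stood above 0, with Kif23 at 24.0 and 41.2 CPM (0.59) and Anln at 31.4 and 14.4 CPM (-0.76). Kif23 and Anln, both needed for cytokinesis, thus stood on opposite sides of 0. Ccnd2 stood at 63.6 and 417 CPM, Ccnd3 at 385 and 193 CPM and Cdkn2a at 3.49 and 47.7 CPM.

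Over the whole endothelial gate the G2/M members were lower in the Crtc2-/- library and the S members were not. The G2/M members stood at 915 and 517 CPM and the S members at 247 and 290 CPM. In sinusoidal endothelial cells, the lining cells of liver capillaries (100 and 633 cells), the G2/M members stood at 1303 and 532 CPM (-1.29) and the S members at 249 and 294 CPM (0.24). In the other endothelial cells (133 and 44 cells) the G2/M members stood at 631 and 192 CPM (-1.71) and the S members at 246 and 210 CPM, with a ratio interval of 0.663 to 1.09. The G2/M members were thus lower in both sub-gates, by more than in the whole gate, whose make-up differed between the libraries. The S share of S and G2/M UMIs was 21.3% and 35.9%. Of 41 measured members 27 were below 0, with a median of -0.24 against -0.03 over all genes. None was past 1.5-fold higher, against 6.36% of genes, and 11 were past 1.5-fold lower, against 6.52%; all 11 were G2/M members. In single-gate endothelial cells 14 of 39 measured members were past 1.5-fold lower, against 6.95% of genes.

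Cenpf (ENSMUSG00000026605, chr1:189640606-189688086), a kinetochore protein, stood furthest apart, at 81.3 CPM (188 UMIs) and 23.4 CPM (210 UMIs), a log2 ratio of -1.45. Ube2c stood at 92.5 and 40.3 CPM (-1.03) and Cenpe at 46.3 and 19.2 CPM (-0.95). Mki67 was at 67.4 and 47.0 CPM (-0.44) and Top2a at 72.6 and 44.6 CPM (-0.60). Of the 17 S members 12 stood above 0, with a median of 0.05 and none past 1.5-fold in either direction. The 3 highest with at least 50 UMIs were Pcna at 47.1 and 66.8 CPM (0.43), Mcm4 at 12.1 and 19.4 CPM (0.41) and Mcm3 at 29.8 and 42.1 CPM (0.39). Only 15 cycling cells lay behind the Crtc2+/+ values, and its top 3 cells carried 44.8% of the gate's G2/M UMIs, against 24.6% in the other library. In cycling endothelial cells, without Mki67 and Top2a, the G2/M members stood at 6439 and 2974 CPM and the S members at 822 and 952 CPM. Macrophage genes summed to 2028 and 4765 CPM in the gate, and their part was not tested.

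NK cells gave the opposite signs in the 2 phases. The S members stood at 211 and 482 CPM and the G2/M members at 486 and 374 CPM, so that the S share was 30.3% and 56.3%. Of 24 measured members all 10 S members were above 0, and 3 of the 13 G2/M members were. In all 10 members were past 1.5-fold higher, against 5.81% of genes, and 4 past 1.5-fold lower, against 3.56%. With the mean of per-cell CPM, 5 were past it higher and 0 lower, and 7 of the 13 G2/M members were above 0. Stmn1 stood at 58.8 and 189 CPM (1.53), Mcm7 at 16.9 and 51.4 CPM (1.19) and Pcna at 31.9 and 81.5 CPM (1.13). Ube2c stood at 48.8 and 15.5 CPM (-1.21), Mki67 at 36.9 and 15.5 CPM (-0.88), Smc4 at 135 and 130 CPM (-0.06) and Top2a at 54.8 and 62.0 CPM (0.15). In the Crtc2+/+ library 1 NK cell carried 62.7% of the gate's G2/M UMIs, against 32.2% for the top cell of the Crtc2-/- library, so the G2/M values of this gate rest on very few cells.

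**Figure D4:**
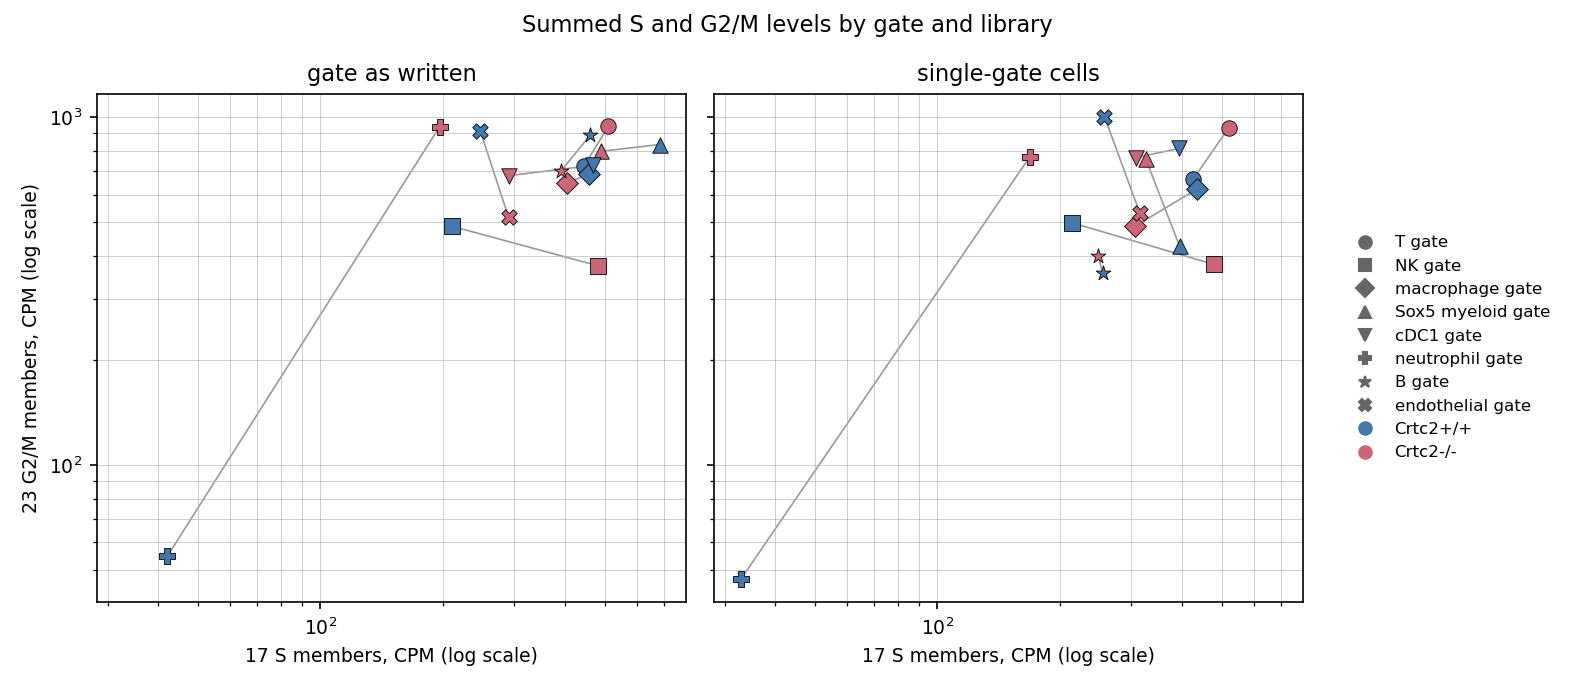
Summed level of the 17 S members (x axis, CPM, log scale) against that of the 23 G2/M members (y axis, CPM, log scale) in each gate, with a line from the Crtc2+/+ to the Crtc2-/- library, for gates as written and single-gate cells. The endothelial line runs down from 915 to 517 CPM of G2/M members, and the T line runs up from 727 to 942 CPM.

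The neutrophil gate showed the members in the Crtc2-/- library and hardly in the other. The S members stood at 42.0 and 196 CPM and the G2/M members at 54.7 and 940 CPM. With called doublets kept, which gave 78 and 331 cells, the S members stood at 201 and 229 CPM, a log2 ratio of 0.19 (-0.22 to 0.63), so no S difference was detectable, and the G2/M members at 108 and 946 CPM (3.13). Without those doublets, Top2a had 0 and 96 UMIs, at least 5.84-fold higher in the Crtc2-/- library when set against the limit of 3 counts over the Crtc2+/+ gate. Mki67 had 0 and 75 UMIs, at least 4.56-fold higher. Ube2c had 2 and 180 UMIs, with a ratio interval of 4.48 to 137, and Stmn1 4 and 229 UMIs, with 4.03 to 38.7. Among the 10 members with at least 50 UMIs, Pcna had the lowest ratio, with 4 and 60 UMIs and a ratio interval of 1.02 to 10.4. Next were Smc4, with 5 and 140 UMIs (2.14 to 16.0), and Birc5, with 2 and 95 UMIs (2.33 to 72.6). Some members with fewer UMIs stood lower, such as Mcm7, with 1 and 19 UMIs and a log2 ratio of 0.79. Of the 41 members 25 reached 20 UMIs, and 16 of these had 0 UMIs in the Crtc2+/+ gate, so they were measured only through the library in which they were higher and their direction was fixed by that. Set against the limit of 3 counts, Ccnb1, with 0 and 21 UMIs, was at least 1.28-fold higher and so was not shown past 1.5-fold. Nothing is read from the count of members past 1.5-fold in this gate, where 22.2% of all genes were past it upward and 9.91% downward.

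These UMIs came from few cells that carried neutrophil precursor genes. Of the 9 cycling Crtc2-/- neutrophil gate cells, 8 held at least 2 UMIs of precursor genes. These compare with 30 of the 301 other cells of the gate and 0 of the 75 Crtc2+/+ cells. Camp, Ngp and Fcnb were each found in 7 of the 9 cells, Ltf in 6 and Prtn3 in 5. Elane was found in only 2, and Mpo and Ctsg in 1 each. Camp stood at 23645 CPM in the cycling and 4986 CPM in the other Crtc2-/- cells, and Fcnb was found in 7 of 9 and 6 of 301. Retnlg, a gene of mature neutrophils, stood at 143 and 5124 CPM, and Cxcr2 at 61.1 and 725 CPM. The top 3 cells carried 53.4% of the G2/M UMIs of the Crtc2-/- gate. The cycling cells had a median of 16108 UMIs against 2900 in the others.

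In the cDC1, Sox5 and B gates the members were lower on balance in the Crtc2-/- library in the gates as written, and the single-gate values were nearer to 0 or of the other sign. In the cDC1 gate the S members stood at 467 and 291 CPM and the G2/M members at 728 and 680 CPM. There 10 of 41 members were above 0, none of them an S member, with a median of -0.32 against 0.07 over all genes. No member was past 1.5-fold higher, against 10.3% of genes, and 3 were past it lower, against 4.59%: Mcm6 at 50.1 and 29.1 CPM (-0.62), Mcm7 at 36.8 and 20.6 CPM (-0.61) and Mcm3 at 59.5 and 36.1 CPM (-0.59). Ube2c stood at 41.3 and 65.0 CPM (0.55), Ccnb2 at 16.7 and 26.7 CPM (0.46) and Cdc20 at 11.1 and 14.4 CPM (0.21), while Mki67 stood at 82.4 and 63.4 CPM and Top2a at 92.0 and 68.4 CPM. With a pseudocount of 1 CPM, 13 members were past 1.5-fold lower and 2 higher, and with the mean of per-cell CPM none was past it. Of the 1012 Crtc2+/+ cells of this gate, 868 also passed the macrophage gate. Macrophage genes summed to 13287 and 5614 CPM there, Kupffer genes to 75.9 and 1599 CPM, endothelial genes to 114 and 1096 CPM and neutrophil precursor genes to 2.76 and 368 CPM, and their part was not tested. Single-gate cDC1 cells had a member median of -0.06.

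The Sox5 gate had 683 and 489 CPM of S members and 836 and 799 CPM of G2/M members. No member was past 1.5-fold higher, against 8.99% of genes, and 8 were past it lower, against 16.9%, with a median of -0.20 against -0.09 over all genes. Uhrf1 stood at 40.2 and 18.5 CPM (-0.82), Gins2 at 22.6 and 10.2 CPM (-0.69) and Mcm3 at 80.3 and 46.0 CPM (-0.69), all 3 of them S members. Plk1 stood at 2.75 and 8.92 CPM (0.57), Cdc20 at 9.90 and 17.8 CPM (0.48) and Smc4 at 105 and 141 CPM (0.40), all 3 of them G2/M members, and Mki67 at 115 and 98.0 CPM and Top2a at 129 and 95.7 CPM. Epithelial genes summed to 1407 and 218 CPM in this gate and were found in 42.0% and 7.32% of its cells, macrophage genes summed to 9607 and 6540 CPM, plasma cell genes to 194 and 755 CPM and hepatocyte genes to 1550 and 2920 CPM, and their part was not tested. With only 35 Crtc2+/+ single-gate cells, 12 of 35 measured members were past 1.5-fold higher, against 22.7% of genes; the median turned to 0.27 and the summed G2/M log2 ratio to 0.83 (0.63 to 1.04).

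The B gate had 461 and 390 CPM of S members and 890 and 701 CPM of G2/M members. No member was past 1.5-fold higher, against 3.87% of genes, and 3 were past it lower, against 3.02%: Cenpe at 45.3 and 22.8 CPM (-0.75), Stmn1 at 298 and 179 CPM (-0.70) and Gins2 at 18.5 and 8.88 CPM (-0.60). The highest ratios, of Cdc20 (0.13), Mcm4 (0.08) and Cdc6 (0.07), were small, and Mki67 stood at 102 and 68.0 CPM and Top2a at 101 and 64.6 CPM. Macrophage genes summed to 9732 and 6455 CPM in this gate and plasma cell genes to 237 and 2810 CPM, and their part was not tested. In single-gate B cells Stmn1 was level, at 69.0 and 66.8 CPM, and the member median was 0.07.

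The members differed widely in how closely they marked the cycling cells. Over all cells, the level in cycling cells divided by that in other cells had a median of 42.4 and 60.2 for the 21 G2/M members other than Mki67 and Top2a, which chose the cells. For the S members the median was 6.04 and 7.30. Nusap1 (166 and 99.4), Cenpf (128 and 118), Kif11 (118 and 67.2) and Ccna2 (110 and 143) had the highest ratios in the Crtc2+/+ library, all G2/M genes, and Hmmr (88.6 and 189) and Bub1 (68.8 and 158) the highest in the Crtc2-/- library. Rrm2, at 104 and 88.8, stood far above the other S members. Cdt1 (3.25 and 2.99), E2f1 (3.45 and 3.52), Mcm6 (3.90 and 4.30) and Mcm4 (4.05 and 4.06) had the lowest in the Crtc2+/+ library, and Pcna (4.78 and 3.78) and Smc4 (5.22 and 3.93) were also low. Cells in early S phase without Mki67 or Top2a UMIs count among the other cells, and in the T gate 41.4% and 47.7% of S member UMIs came from cycling cells against 72.9% and 74.9% of G2/M member UMIs. Stmn1, in neither group, stood at 23.9 and 22.9.

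**Figure D5:**
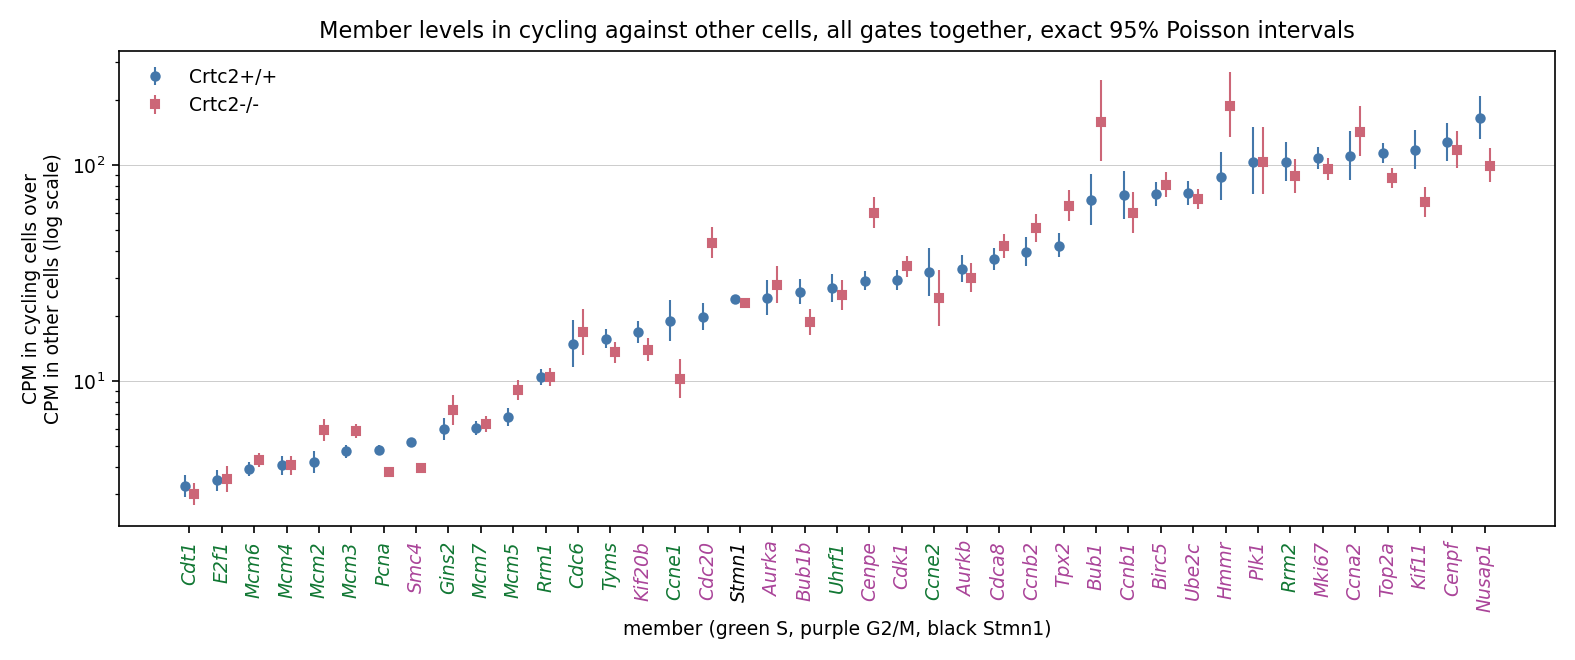
Level in cycling cells divided by the level in other cells (log axis) for each member over all cells of each library, with exact Poisson intervals; Mki67 and Top2a, which chose the cells, are shown for reference. Nusap1 reaches 166 in the Crtc2+/+ library and Cdt1 lies lowest at 3.25.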

How the data were processed

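The authors deposited raw UMI counts per gene and cell, 1 matrix per library, made with Cell Ranger 7.1.0 per the file headers; the mm10 build and Seurat are named in the submitters' processing notes, and the sources used here name neither the annotation nor the use of intronic reads. Cells with at least 500 UMIs, 250 genes and at most 20% mitochondrial UMIs were kept. Scrublet (scanpy 1.11.5), at an expected 0.8% doublets per 1000 cells, called 263 and 273 doublets, which were removed. These were 2.74% and 2.98% of the filtered cells, against an expected 7.69% and 7.34%, so doublets may remain. Gates were applied to raw counts. Levels are CPM, counts over the total UMIs of the gate, with exact Poisson intervals; shares have exact Clopper-Pearson intervals. PCR duplicates were collapsed by UMI, and intervals cover counting error only. Intervals of levels treat UMIs as independent, although UMIs of the members cluster in few cells. A gene was called past 1.5-fold on log2(CPM + 10), a scale that understates low genes. Named members are Mki67, Top2a and, per gate, the 3 highest and 3 lowest log2 ratios with at least 50 UMIs; per-cell enrichment names the 4 highest and 4 lowest. Sub-gates were Cd8a and Cd8b1, Cd4, Foxp3 or Pdcd1 of at least 1 UMI in T cells. Plasmacytoid dendritic cells had at least 2 Siglech UMIs and passed none of the 8 gates. Bub1 and Hmmr, the cycling neutrophil gate cells and other genes outside these rules were singled out after their values were seen. The members and lists were chosen with earlier results of these data known. Scripts were tested on simulated data. Alternatives covered doublets, filters, gates, thinning, thresholds, pseudocounts and the scale. Python 3.11.15, numpy 2.4.6, scipy 1.17.1 and pandas 2.3.3 were used. Symbols were matched to GENCODE M21 (GRCm38) for 41 of 41 members.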

Additional observations from a re-analysis of the deposited data

Results flagged for a closer look

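The log2 ratios of Crtc2-/- over Crtc2+/+ for the summed members went in opposite directions between gates, and the difference between gates was not tested. For the S members the log2 ratio was above 0 in the T gate (0.20), NK gate (1.19), neutrophil gate (2.22) and endothelial gate (0.23); the neutrophil value was 0.19 (-0.22 to 0.63) with called doublets kept. It was below 0 in the macrophage gate (-0.18), Sox5 gate (-0.48), cDC1 gate (-0.68) and B gate (-0.24). For the G2/M members it was above 0 in the T gate (0.37) and neutrophil gate (4.10). It was below 0 in the NK gate (-0.38), macrophage gate (-0.0879), cDC1 gate (-0.0976), B gate (-0.35) and endothelial gate (-0.82). The endothelial and NK gates had opposite signs for the S and the G2/M members. In the NK gate 1 Crtc2+/+ cell carried 62.7% of the G2/M UMIs. With the mean of per-cell CPM the median log2 ratio of the NK G2/M members was 0.05, and 7 of 13 were above 0.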

How the results depend on the processing

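No paired analysis was possible because there was 1 library per genotype, and no replicate could be left out. Single-gate cells at 2000 UMIs and a second marker required of each gate were added after seeing the data; the causes of the moves below were not tested. The log2 ratio of cycling shares kept its direction in the T gate under every alternative run but was 0.13 at 1000 UMIs. In the macrophage gate it was -0.21 in single-gate cells, -0.0213 at 2000 UMIs, -0.41 with both, and 0.16 with at least 4 UMIs. In the Sox5 gate it was 0.35 in single-gate cells and 0.66 with 2000 UMIs as well. In the B gate it was 1.30 in single-gate cells, -0.56 at 2000 UMIs, -0.70 at 1000 UMIs, 0.83 in thinned single-gate cells and 0.69 with a second marker. In the endothelial gate it was -0.86 at 2000 UMIs, -2.02 at 1000 UMIs and -1.21 in thinned single-gate cells. The neutrophil gate gave no ratio, since its Crtc2+/+ share was 0. The difference in S share (percentage points) inside cycling cells was -1.08 for T, 50.6 for NK, -0.16 for macrophage, -9.07 for Sox5, -13.1 for cDC1 and -2.49 for B gates. As a mean over cells it was -5.15 for T, 1.71 for NK, -3.11 for macrophage, 5.17 for B and 8.91 for endothelial gates. In single-gate cells it was -2.53 for macrophage, -18.1 for Sox5, -3.96 for cDC1, -3.45 for B and 16.9 for endothelial gates, and with doublets kept -3.53 for Sox5. The median log2 ratio of the members in single-gate cells was -0.26 for macrophage, 0.27 for Sox5, -0.0576 for cDC1 and 0.0702 for B gates. With a pseudocount of 1 CPM it was -0.19 for macrophage, 4.63 for neutrophil and -0.34 for B gates, and with mean per-cell CPM 0.0015 for macrophage, 0.78 for neutrophil and -0.0829 for B gates. The neutrophil median was 1.71 with doublets kept, 1.38 with no minimum and 2.79 with at least 100 UMIs. The neutrophil medians rest on 25 members, 16 of them at 0 in the Crtc2+/+ gate. In single-gate cells the summed G2/M log2 ratio was 0.17 in the B gate, 0.83 in the Sox5 gate and -0.36 in the macrophage gate, and the summed S log2 ratio was -0.51 in the macrophage, -0.28 in the Sox5, -0.36 in the cDC1 and -0.04 in the B gate. With called doublets kept the neutrophil log2 ratios were 0.19 for S and 3.13 for G2/M members, and the Sox5 G2/M ratio was -0.30. With a pseudocount of 1 CPM, members past 1.5-fold numbered 6 higher in the T gate, 12 higher and 4 lower in NK, 3 lower in macrophage, 2 higher and 9 lower in Sox5, 2 and 13 in cDC1, 7 lower in B and 2 higher and 15 lower in endothelial gates. With mean per-cell CPM they numbered 0 in the T, macrophage, cDC1 and B gates, 5 higher in NK, 20 higher in neutrophil, 7 lower in Sox5 and 6 lower in endothelial gates. Over all gates, 61 alternative values of the share ratio did not move beyond their limits, 12 moved and 3 reversed. For the S share these counts were 38, 15 and 2, and for the member median 51, 10 and 3. For the summed G2/M level they were 23, 8 and 1. Of the alternative values of the summed S level, 26 did not move and 6 moved. The values that did not move include all those of the alternative cell filters. The NK, neutrophil and endothelial gates rest on few cycling cells, with 3, 0 and 15 in the Crtc2+/+ library.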
